A study of Sus scrofa with 12 samples.

Results

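Of 39 genes listed for glycolysis and for the building and breakdown of glycogen, 38 had an Ensembl identifier by the pig gene names and counts in Semimembranosus muscle. They were taken by name, out of 25880 genes listed in the count table. The one without an identifier was PGM1, and it is not described here. The 12 Italian Large White pigs, 6 with high and 6 with low intramuscular fat (IMF), were labelled as 3 females and 3 males in each group. The study names them gilts and barrows, so the males were castrated. Pigs of the tested population shared a diet and housing, and the study gives their final live weight as an average. No experimental treatment or engineered allele was named. The study took them as unrelated pigs from the extremes of fat content in a larger tested population, so the groups are ends of a range and not a treatment. By the labels the high IMF pigs were 234 to 244 days old and the low IMF pigs 229 to 249 days old. Muscle was frozen at a commercial slaughterhouse, and stranded libraries of polyadenylated RNA were sequenced as read pairs.

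Glycolysis splits glucose 6-phosphate into pyruvate in a chain of enzyme steps in the cytosol, and it yields ATP without oxygen when pyruvate is turned into lactate. Glycogen is the store of glucose in muscle: phosphorylase and its kinase release sugar phosphates from it, and glycogenin, glycogen synthase and the branching enzyme build it. Most of these enzymes exist as several forms coded by different genes, and skeletal muscle is known for using its own forms of many of them. After slaughter the same pathway turns glycogen into lactate, which lowers the pH of meat. These sentences are background and not results of these counts.

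Depth ran from 131048805 to 178013997 counts. The 5 skeletal muscle genes that were found by name (ACTA1, CKM, DES, TNNT3 and TNNT1) summed to between 32193 and 61776 counts per 1000000 (CPM), while myosin heavy chains, myoglobin and titin carried no name in the table and were not checked. Counts on 2 genes of the Y chromosome went against the labelled sex in 6 of the 12 pigs, 2 of high and 4 of low IMF. Results are also given for the 6 pigs whose counts matched. A match of sex does not show that a pig's group label is right, so these 6 are not a verified set. Whether pigs or labels were exchanged, and with them the IMF groups, cannot be told from these counts, and each comparison holds for the libraries as labelled. Library 7, of the low IMF group, stood apart in scaling: its effective library size under the trimmed mean of M-values (TMM) was 0.81 of its total, against 0.918 to 1.12 in the others. CPM below are TMM-normalized unless a share of all counts is named. These are whole pieces of muscle, in which fewer cells of a type and less RNA per cell cannot be told apart.

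The 38 genes took a large and narrow share of the muscle's transcripts. They held between 6.07% of all counts, in high IMF pig 6, and 7.84%, in high IMF pig 2. On average high IMF pigs gave 7.06 ± 0.595% (SD, n = 6) and low IMF pigs 7.37 ± 0.407% (SD, n = 6), so that the groups differed by less than the spread between pigs. The 19 genes of the enzyme steps from hexokinase to lactate dehydrogenase made up 6.00 ± 0.466% (SD, n = 12) of all counts and the 16 glycogen genes 1.17 ± 0.0844% (SD, n = 12). With the 13 named genes of the mitochondrial genome and the gene with the most counts left out of the total, the share of the 38 genes was 8.67 ± 0.507% (SD, n = 12).

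A set of 6 genes held 78.2% to 85.3% of the counts of the 38 in every pig. GAPDH (ENSSSCG00000000694, chr5:64129678-64135194), which oxidizes glyceraldehyde 3-phosphate, was seventh of all genes by summed count, and its share of all counts ran from 1.48% in low IMF pig 12 to 2.51% in low IMF pig 7. ALDOA (chr3:18246036-18260167), the muscle aldolase, took 1.22 ± 0.186% (SD, n = 12) of all counts. ENO3 (chr12:51954614-51959991), the muscle enolase, took 0.85 ± 0.0707% (SD, n = 12). The 3 that follow were PYGM (chr2:7409330-7421256, muscle glycogen phosphorylase), LDHA (the lactate dehydrogenase chain common in muscle) and PKM (muscle pyruvate kinase). Their shares were 0.672 ± 0.107%, 0.638 ± 0.0884% and 0.509 ± 0.054% in this order (SD, n = 12). Genes such as GAPDH, ALDOA, LDHA, PKM, TPI1 and PGK1 have near-identical copies in mammalian genomes, and how reads with several alignments were counted is not given in the sources used here, so their totals are uncertain.

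**Figure D1:**
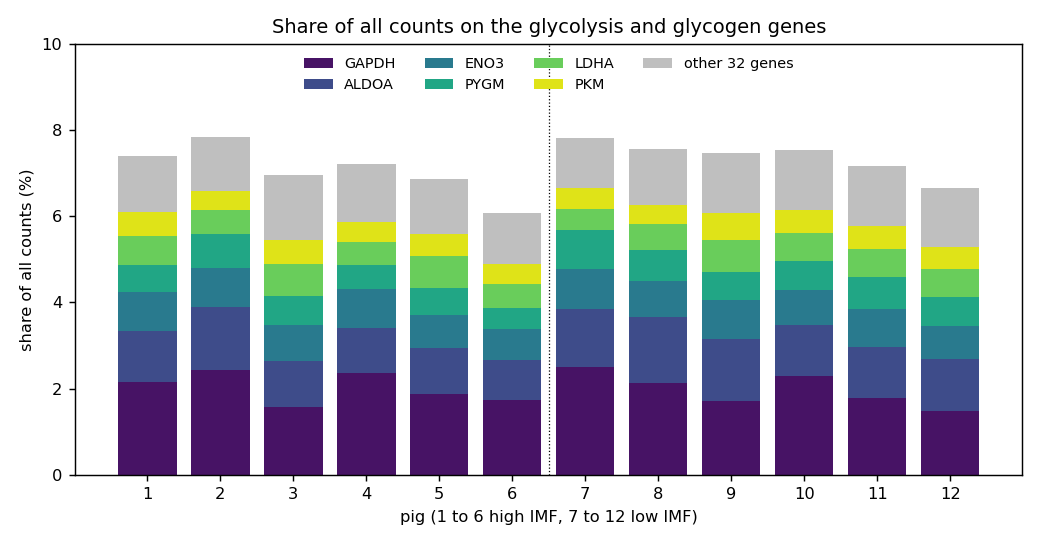
Stacked bars give, for each pig, the percent of all counts on GAPDH, ALDOA, ENO3, PYGM, LDHA, PKM and the other 32 genes together, with pigs 1 to 6 of high IMF left of the dotted line and pigs 7 to 12 of low IMF right of it. The totals lie between 6.07% and 7.84% and the groups overlap.

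Levels can be set side by side between genes only per length, and here CPM were divided by the median length of a gene's RefSeq transcripts. On this scale the 37 genes with a length spanned more than 5 orders of size as a mean, from GAPDH at 14264 ± 3405 CPM per kb (SD, n = 12) down to PYGB at 0.0582 ± 0.038 CPM per kb (SD, n = 12). The chain was not even along its steps. ALDOA stood at 7477 ± 1251, ENO3 at 5955 ± 803 and LDHA at 3362 ± 453 CPM per kb (SD, n = 12). Lower were PFKM, the muscle phosphofructokinase, at 676 ± 94.7, and GPI, which turns glucose 6-phosphate into fructose 6-phosphate, at 544 ± 80.0 CPM per kb (SD, n = 12). The lowest step was the first, hexokinase, with HK2 at 29.7 ± 11.3 CPM per kb (SD, n = 12).

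**Figure D2:**
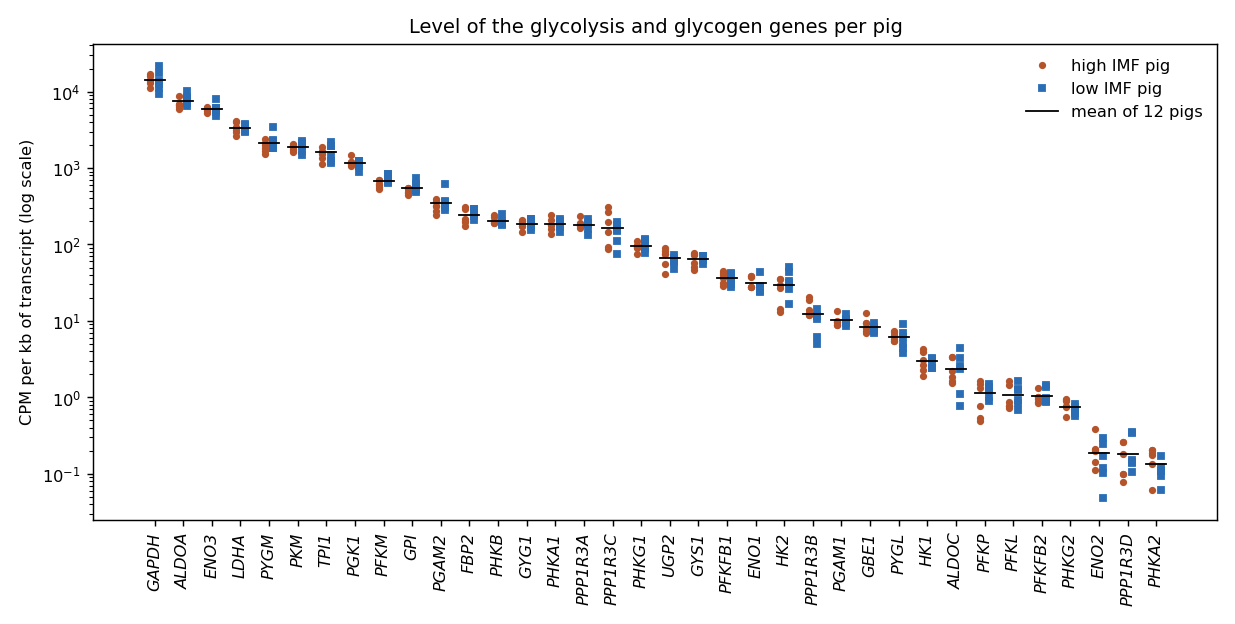
Each point is the TMM-normalized CPM per kb of transcript of 1 pig on a log axis, with circles for high IMF and squares for low IMF pigs and a line at the mean of 12 pigs. 36 genes are drawn in order of their mean, from GAPDH to PHKA2, and PYGB is left out because a pig had 0 counts. LDHB is left out because it could not be given a length.

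In most enzymes with more than 1 gene a single form carried nearly all of the transcripts. Among 10 enzymes or subunits compared per length, the leading form held over 95% on average in 8 within the 38 genes, and in 7 with further forms counted as well for 3 of them (aldolase, phosphofructo-2-kinase and the targeting subunits). ALDOA held 99.97% of aldolase, with ALDOC, the form known from brain, at 0.0333 ± 0.0162% (SD, n = 12). PFKM held 99.7 ± 0.105% (SD, n = 12) of phosphofructokinase, beside 0.169 ± 0.0594% (SD, n = 12) for PFKP and 0.159 ± 0.0528% (SD, n = 12) for PFKL, the platelet and liver forms. The other forms thus made up well under 1% of these enzymes. PFKP lay between 1.31 and 4.37 CPM in high IMF (median 2.87) and between 2.41 and 4.06 CPM in low IMF (median 3.47). ALDOC lay between 2.55 and 5.61 CPM in high IMF (median 3.37) and between 1.28 and 7.24 CPM in low IMF (median 4.02). The groups overlapped in both, as in PFKL, which lay between 2.28 and 5.17 CPM in high IMF (median 2.62) and between 2.16 and 5.14 CPM in low IMF (median 3.48).

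PGAM2, the muscle phosphoglycerate mutase, made up 97.0 ± 0.879% (SD, n = 12) of the 2 mutases, and the share was lowest in high IMF pig 6 at 94.9%. PGAM1, the widely expressed form, lay between 16.3 and 24.5 CPM in high IMF (median 18) and between 15.7 and 23 CPM in low IMF (median 18.8). High IMF pig 6 had the most PGAM1 and the least PGAM2 (537 CPM) of its group. ENO3 held 99.5 ± 0.104% (SD, n = 12) of enolase, against 0.525 ± 0.104% (SD, n = 12) for ENO1, the form of most tissues, and 0.00323 ± 0.00166% (SD, n = 12) for ENO2, the neuronal form. ENO1 lay between 50.4 and 71.1 CPM in high IMF (median 60.4) and between 44 and 79.8 CPM in low IMF (median 51.3).

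PYGM held 99.7 ± 0.0998% (SD, n = 12) of glycogen phosphorylase. PYGL, the liver form, followed at 0.302 ± 0.0987% (SD, n = 12) and lay between 13.8 and 18.8 CPM in high IMF (median 15.9) and between 9.72 and 23.3 CPM in low IMF (median 14.4). PYGB, the brain form, had 0 counts in low IMF pig 7 and at most 0.803 CPM in any pig. For phosphorylase kinase, which switches phosphorylase on, PHKA1 held 99.9 ± 0.039% (SD, n = 12) of the alpha subunit and PHKG1 99.2 ± 0.182% (SD, n = 12) of the gamma subunit. PHKA2 and PHKG2, the forms known from liver, filled the rest. PHKA1 lay between 865 and 1530.4 CPM in high IMF (median 1143) and between 928 and 1373 CPM in low IMF (median 1152). PHKA2 lay between 0.559 and 1.87 CPM in high IMF (median 1.66) and between 0.562 and 1.55 CPM in low IMF (median 0.981). Of its high IMF pigs, 4 were above every low IMF pig and 1 below them all. PHKG1 lay between 136 and 201 CPM in high IMF (median 168) and between 139 and 213 CPM in low IMF (median 178). PHKG2 lay between 0.833 and 1.45 CPM in high IMF (median 1.26) and between 0.853 and 1.24 CPM in low IMF (median 0.956). The groups overlapped in each of the 4 genes. PFKFB1, which makes the activator fructose 2,6-bisphosphate, held 97.2 ± 0.495% (SD, n = 12) of the pair with PFKFB2. With PFKFB3 and PFKFB4, which make it too and are not among the 38, PFKFB1 held 66.6 ± 8.47% (SD, n = 12), beside 18.4 ± 8.8% (SD, n = 12) for PFKFB3 and 13.1 ± 2.72% (SD, n = 12) for PFKFB4. PFKFB1 lay between 101 and 157 CPM in high IMF (median 133) and between 97.8 and 146 CPM in low IMF (median 123). PFKFB2 lay between 3.28 and 5.16 CPM in high IMF (median 3.81) and between 3.41 and 5.7 CPM in low IMF (median 3.67).

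Hexokinase and the glycogen-targeting subunits of protein phosphatase 1 were less one-sided. HK2 (chr3:68155656-68231187), the hexokinase that responds to insulin in muscle, held 89.8 ± 3.96% (SD, n = 12) of the pair with HK1, with pigs between 84.1% and 95.4%. HK1 itself lay between 6.97 and 15.7 CPM in high IMF (median 10.4) and between 8.74 and 11.8 CPM in low IMF (median 10.8). The targeting subunits bring the phosphatase to glycogen, where it switches synthase on and phosphorylase off. PPP1R3A, the striated muscle subunit, held 52.6 ± 10.3% (SD, n = 12) and PPP1R3C 43.9 ± 10.7% (SD, n = 12) of the 4 subunits per length. PPP1R3A led in 9 pigs and PPP1R3C in 3, and PPP1R3B stayed at 3.45 ± 0.97% (SD, n = 12) and PPP1R3D at 0.0557 ± 0.0329% (SD, n = 12). By raw counts, without length, PPP1R3A held 70.4% on average, since its RefSeq transcript of 7632 bases is longer than that of PPP1R3C with 3335 bases.

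Lactate dehydrogenase could not be set out per length. LDHA had 6371 ± 858 CPM (SD, n = 12) and LDHB, the heart-type chain, 1.77 ± 0.527 CPM (SD, n = 12). RefSeq gives the name LDHB to 2 loci, chr5:51810932-51831218 with 8 exon blocks and chr2:12988754-12990033 with 1 exon block. The table's identifier could not be assigned to either, so the low count may be that of only 1 of them.

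The 250 bases before the RefSeq start (Sscrofa11.1) are shown for the leading enolase, for ENO1 as the form that stays low, and for PYGM. PYGM is a glycogen gene picked for its r with ENO3 over pigs, which was 0.78, or 0.46 without pig 7. Capitals mark CANNTG, which reads alike on both strands, and GGGCGG on either strand. The windows lie at chr12:51959992-51960241 on the minus strand, chr6:69401665-69401914 on the minus strand and chr2:7409080-7409329 on the plus strand, and no marked letters overlap.
ENO3: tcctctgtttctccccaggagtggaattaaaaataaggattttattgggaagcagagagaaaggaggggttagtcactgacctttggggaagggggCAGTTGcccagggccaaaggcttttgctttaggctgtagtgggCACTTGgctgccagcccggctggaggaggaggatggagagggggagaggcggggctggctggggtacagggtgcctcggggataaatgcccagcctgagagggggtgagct
ENO1: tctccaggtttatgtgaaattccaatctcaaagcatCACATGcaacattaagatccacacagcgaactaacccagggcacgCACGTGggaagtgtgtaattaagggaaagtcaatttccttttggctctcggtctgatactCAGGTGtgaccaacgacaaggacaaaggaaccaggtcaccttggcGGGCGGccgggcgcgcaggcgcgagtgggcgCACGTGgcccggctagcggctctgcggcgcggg
PYGM: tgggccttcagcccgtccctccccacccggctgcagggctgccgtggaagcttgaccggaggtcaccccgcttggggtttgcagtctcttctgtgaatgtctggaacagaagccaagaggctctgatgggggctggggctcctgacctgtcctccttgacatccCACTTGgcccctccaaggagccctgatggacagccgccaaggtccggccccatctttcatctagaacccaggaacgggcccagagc
ENO3 holds CANNTG 2 times, ENO1 4 times and PYGM 1 time, and GGGCGG is found here only in ENO1. Searched on both strands, CANNTG was found in 22 of 37 windows of these genes (59.5%) and in 61.9% of 19544 windows of protein-coding genes. GGGCGG was found in 25 of 37 (67.6%) against 45.9%, TATAAA in 4 (10.8%) against 9.76%, and CTANNNNTAG in 3 (8.11%) against 2.32%. The 3 with CTANNNNTAG were GAPDH, PHKA1 and PPP1R3A. These are matches of letters and not binding sites.

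Whether the pathway differed with fat content was asked by comparing low with high IMF for all 14262 genes tested, with log2FC positive where low IMF was higher. None of the 38 genes was a differentially expressed gene (DEG, adjusted p at or under 0.05 and log2FC of at least 0.58 in size), and 0% of all genes were, by edgeR's quasi-likelihood test. The smallest adjusted p of the 38 was 0.441. An unadjusted p at or under 0.05 was reached by 2 of 38 genes (5.26%), below the 10.4% of all genes. One was higher in low IMF, where 5.38% of all genes were, and the other higher in high IMF, where 5.04% were. No gene of the 38 had groups that did not overlap, beside 0.659% of all genes. DESeq2's Wald test called 64 genes in all and 0 of the 38, with the same number of 2 at an unadjusted p at or under 0.05. The exact permutation test can reach 0.00216 at the least, before adjustment, with 6 against 6 pigs.

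Fold changes were small on both sides. Of the 38 genes, 21 had a log2FC above 0 and 17 below 0, with a median of 0.02 beside -0.01 for all genes tested. The median size of the log2FC was 0.12, against 0.17 for all genes tested, which were not matched for level. For 24 of the 38 genes the 95% interval lay within 0.58 on either side of 0, so a change of 1.5-fold lay outside it. This held for 49.0% of all genes tested, again not matched for level. Only PPP1R3B reached 0.58 in size among the 38, as did 8.45% of all genes. It had the lowest log2FC of the 38, and HK2 the highest at 0.37.

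**Figure D3:**
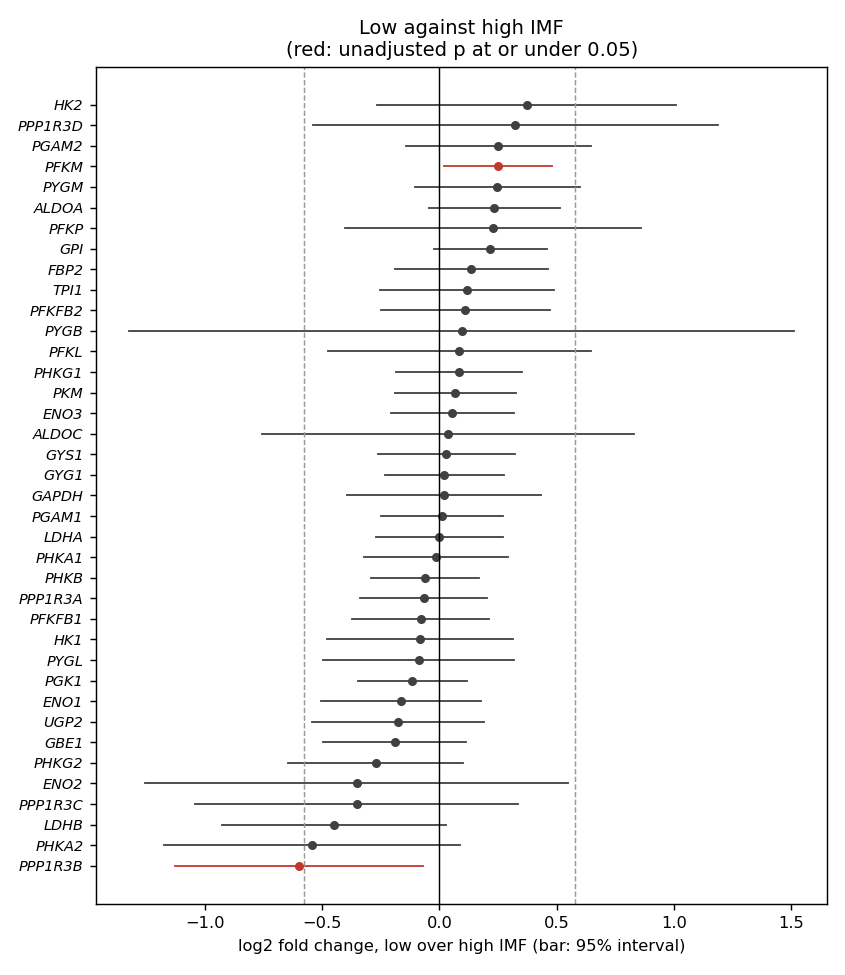
Points give the log2FC of low over high IMF for each of the 38 genes and bars the 95% interval of the edgeR fit, ordered by log2FC, with dashed lines at 0.58 on either side. PFKM and PPP1R3B, drawn in red, are the 2 whose interval leaves out 0.

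PFKM (ENSSSCG00000021129, chr5:78475473-78525052), the enzyme of the committed step of glycolysis, was between 1527 and 2018 CPM in high IMF (median 1759) and between 1850.0 and 2417 CPM in low IMF (median 2065). The 3 low IMF pigs 9, 10 and 12 lay above every high IMF pig and the 4 high IMF pigs 1, 4, 5 and 6 below every low IMF pig, with an overlap between pigs 2 and 3 and the remaining low IMF pigs. The difference was log2FC 0.25 ± 0.11 (SE), with p = 0.0369 and adjusted p = 0.452 by edgeR, and the exact permutation test gave an unadjusted two-sided p = 0.0281. Scaled by library size only, the exact permutation p was 0.0801.

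PPP1R3B (ENSSSCG00000022797, chr15:56002383-56013477), a targeting subunit best known from liver and also found in muscle, was between 59.7 and 103 CPM in high IMF (median 66.9) and between 25.1 and 72.4 CPM in low IMF (median 55.7). Of the low IMF pigs, 5 lay below the lowest high IMF pig, and pigs 7 (30.9 CPM) and 12 (25.1 CPM) were the lowest of all. High IMF pigs 3 and 4 lay above every low IMF pig. The difference was log2FC -0.60 ± 0.25 (SE), with p = 0.0288 and adjusted p = 0.441 by edgeR, and the exact permutation test gave an unadjusted two-sided p = 0.0346. Scaled by library size only, that p was 0.0563. Only these 2 genes had an unadjusted exact permutation p at or under 0.05 among the 38, while by library size only they were GPI (0.0108) and LDHB (0.0411). With each pig left out in turn, PFKM lost its unadjusted edgeR p at or under 0.05 in 7 of 12 fits (without high IMF pigs 1, 4, 5 or 6 or low IMF pigs 9, 10 or 12) and PPP1R3B in 4 of 12 (without high IMF pigs 3 or 4 or low IMF pigs 7 or 12).

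With the 6 pigs whose Y chromosome counts matched the label, 4 of high and 2 of low IMF, none of the 38 genes was called and 2 had an unadjusted p at or under 0.05, PHKA2 and FBP2 in place of PFKM and PPP1R3B. PFKM and PPP1R3B kept their sign there, with log2FC 0.31 and -0.77. GAPDH, ALDOA, ENO3, HK2 and PGAM2 turned to the other sign in these 6 pigs.

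In 4 of the 6 most abundant genes the group means differed by less than the SD of either group. GAPDH was between 15817 and 23897 CPM in high IMF (median 19932) and between 13156 and 30951 CPM in low IMF (median 18678), and its log2FC of 0.02 had a 95% interval from -0.39 to 0.43 and turned below 0 when scaled by library size only (-0.026) and in limma-voom (-0.021). The highest and the lowest pig, 7 and 12, were both of low IMF. LDHA (ENSSSCG00000013366) was between 5028 and 7779 CPM in high IMF (median 6195) and between 5542 and 7236 CPM in low IMF (median 6363), with a 95% interval from -0.27 to 0.27. ENO3 was between 7560.0 and 9064 CPM in high IMF (median 8436) and between 6853 and 11597 CPM in low IMF (median 8585), with log2FC 0.056 ± 0.12 (SE). PKM was between 4425 and 5495 CPM in high IMF (median 5004) and between 3955 and 6103 CPM in low IMF (median 5500.0), with log2FC 0.068 ± 0.12 (SE). The adjusted p of these 4 was 0.884 or more by edgeR. In ALDOA and PYGM, the other 2, the means differed by more than the SD in high IMF and by less than the SD in low IMF.

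Other steps had a log2FC above 0 without passing the test. ALDOA was between 9595 and 14417 CPM in high IMF (median 10931) and between 10708 and 16529 CPM in low IMF (median 13139), with log2FC 0.23 ± 0.13 (SE) and adjusted p = 0.548 by edgeR. GPI was between 874 and 1070.2 CPM in high IMF (median 1004) and between 959 and 1455 CPM in low IMF (median 1112), with log2FC 0.22 ± 0.11 (SE) and adjusted p = 0.514 by edgeR. PYGM, which releases glucose 1-phosphate from glycogen, was between 4895 and 7664 CPM in high IMF (median 6236) and between 5920.1 and 11025 CPM in low IMF (median 6903), with log2FC 0.25 ± 0.16 (SE) and adjusted p = 0.62 by edgeR. PGAM2 was between 537 and 852 CPM in high IMF (median 697) and between 627 and 1355 CPM in low IMF (median 749.7), with log2FC 0.25 ± 0.18 (SE) and adjusted p = 0.657 by edgeR. In all 4 the groups overlapped, and pig 7 was the highest pig of the 12. HK2 was between 40.5 and 111 CPM in high IMF (median 88.7) and between 51.6 and 156 CPM in low IMF (median 101), with log2FC 0.37 ± 0.30 (SE) and adjusted p = 0.684 by edgeR.

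Others had a log2FC below 0, again without passing the test. LDHB was between 1.26 and 2.51 CPM in high IMF (median 2.1) and between 1.15 and 2.12 CPM in low IMF (median 1.24), with log2FC -0.45 ± 0.22 (SE) and adjusted p = 0.496 by edgeR, with 4 low IMF pigs at 1.15 to 1.30 CPM and 2 above 2 CPM. PHKA2 had log2FC -0.54 ± 0.29 (SE) with adjusted p = 0.535 by edgeR, and high IMF pig 3, at 0.559 CPM, lay apart from its group. PPP1R3C was between 296 and 1039.8 CPM in high IMF (median 569) and between 251 and 647 CPM in low IMF (median 509), with log2FC -0.35 ± 0.32 (SE) and adjusted p = 0.73 by edgeR. PPP1R3A was between 1260.1 and 1773 CPM in high IMF (median 1382) and between 1011 and 1634 CPM in low IMF (median 1430.4), with log2FC -0.066 ± 0.13 (SE) and adjusted p = 0.892 by edgeR.

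**Figure D4:**
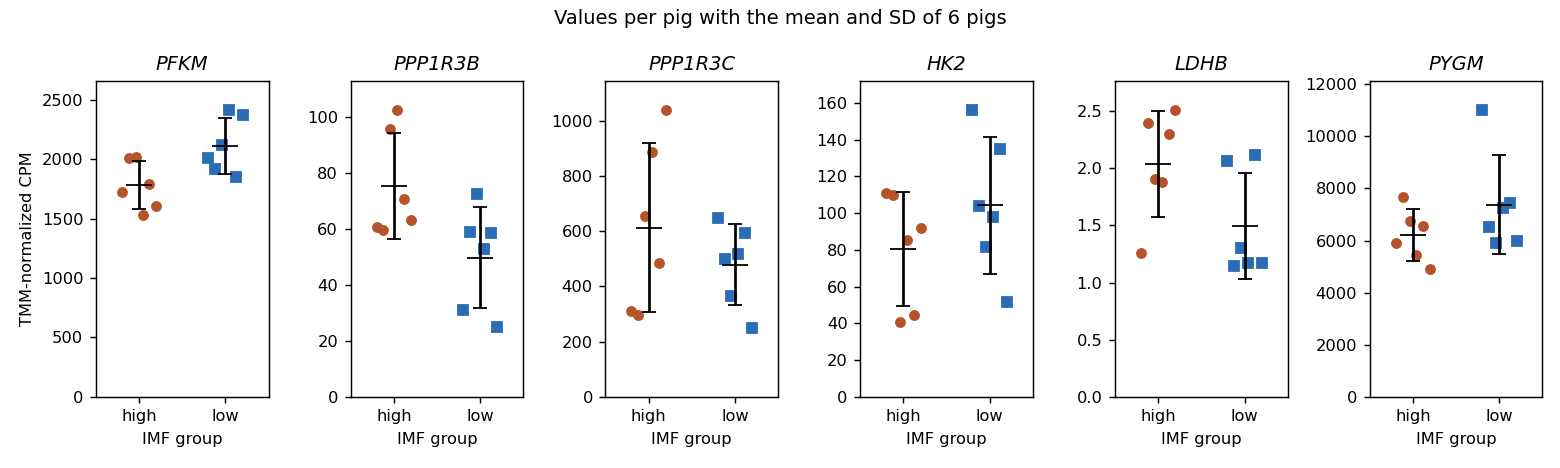
Each panel gives the TMM-normalized CPM of 1 gene on a linear axis from 0, with circles for the 6 high IMF pigs, squares for the 6 low IMF pigs, and the mean with SD of each group in black. PFKM and PPP1R3B overlap between groups, and a single low IMF pig, pig 7, lies above the rest in PYGM.

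The genes that build glycogen had log2FCs between -0.19 and 0.03. GYG1, the primer protein glycogenin, had a log2FC of 0.022 ± 0.12 (SE), and GYS1, muscle glycogen synthase, 0.03 ± 0.14 (SE). GYS1 lay between 165 and 278 CPM in high IMF (median 233) and between 195 and 254 CPM in low IMF (median 233). GYG1 lay between 271 and 399 CPM in high IMF (median 355) and between 293 and 410.1 CPM in low IMF (median 345). The groups overlapped in both genes. GBE1, the branching enzyme, lay between 22.5 and 40.9 CPM in high IMF (median 27.8) and between 22.4 and 30.2 CPM in low IMF (median 24), with log2FC -0.19 ± 0.14 (SE). UGP2, which makes UDP-glucose, lay between 107 and 233 CPM in high IMF (median 192) and between 123 and 187 CPM in low IMF (median 158), with log2FC -0.18 ± 0.17 (SE). In UGP2, 4 high IMF pigs lay above the highest low IMF pig and 1 below the lowest. PHKB, the beta subunit of phosphorylase kinase, lay between 775 and 987 CPM in high IMF (median 815) and between 746 and 1031 CPM in low IMF (median 782). FBP2, the muscle fructose bisphosphatase that runs against phosphofructokinase, lay between 194 and 348 CPM in high IMF (median 234) and between 234 and 326 CPM in low IMF (median 283). Of the remaining steps of glycolysis, TPI1, which interconverts the triose phosphates, lay between 1296 and 2185 CPM in high IMF (median 1815) and between 1359.8 and 2512 CPM in low IMF (median 1978). PGK1, the first step of the chain that yields ATP, lay between 1869 and 2576 CPM in high IMF (median 2064) and between 1584 and 2198 CPM in low IMF (median 1941). Low IMF pigs 8 and 12 had less PGK1 than any high IMF pig, and high IMF pig 3 had more than any low IMF pig.

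Spread between pigs was on the whole below that of other genes. The SD of log2 CPM over 12 pigs had a median of 0.283 for the 38 genes against 0.331 for all genes tested, and 15 of the 38 lay above the latter. The genes were not matched for level, and 21 of the 38 had at least 100 CPM on average. GAPDH, with the highest count, lay at 0.335. The steadiest were PHKB, PGK1, ENO3 and PKM, with SDs of 0.158, 0.169, 0.183 and 0.188. Among genes above 10 CPM, PPP1R3C, HK2 and PPP1R3B varied most, with SDs of 0.633, 0.616 and 0.58. PPP1R3C differed 4.14-fold between the lowest and the highest pig and HK2 3.86-fold.

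Whether the genes moved together over pigs was described by Pearson's r of log2 CPM. Over all 703 pairs of the 38 genes the median r was -0.01, beside -0.0014 over all pairs of genes tested, and 11.2% of the pairs reached 0.5 against 7.77%. Among the 11 most abundant forms of the steps from hexokinase to lactate dehydrogenase the median r was 0.33, and 21 of 55 pairs (38.2%) reached 0.5. Among the 16 glycogen genes it was -0.02. Pig 7 was the highest pig in 7 of the 11 chain genes by TMM-normalized CPM but in 3 of 11 by share of all counts. Without pig 7 the median r of the chain was 0.29 with 12 of 55 pairs at 0.5, and scaled by library size only it was 0.14. These values are descriptions over 12 pigs that share their scaling.

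Over all 12 pigs the chain pairs with the highest r lay among PGAM2, ALDOA, ENO3, GAPDH and GPI, joined by PYGM from the glycogen side. Not every pair of this group was high, as GPI with GAPDH had r = 0.43. PKM and LDHA, outside it, had r = 0.71 over all 12 pigs. Without pig 7 that of PKM and LDHA was 0.83, the highest r of a chain pair and above each value without that pig given below. ALDOA and PGAM2 had r = 0.83, or 0.71 without pig 7. GAPDH and ENO3 had r = 0.82, or 0.69 without it. ALDOA and PYGM had r = 0.81, or 0.67. ENO3 and PYGM, whose start regions are printed above, had r = 0.78 with pig 7 and 0.46 without. GPI and PYGM had r = 0.80, or 0.55 without pig 7. Lower without that pig were GPI with PGAM2 (r = 0.71, and 0.30) and PGAM2 with PYGM (r = 0.76, and 0.37). A second block held PHKB with PPP1R3A (r = 0.76, and 0.79 without pig 7) and PHKA1 with PHKG1 (r = 0.71, and 0.70). As high were PFKL with PPP1R3D (r = 0.77, and 0.71) and PFKL with PFKP (r = 0.73, and 0.77), all at low CPM. On the negative side lay ENO3 with PYGB (r = -0.78, and -0.31 without pig 7) and PFKL with GYG1 (r = -0.74, and -0.84). These pairs were picked for their r and carry no test.

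**Figure D5:**
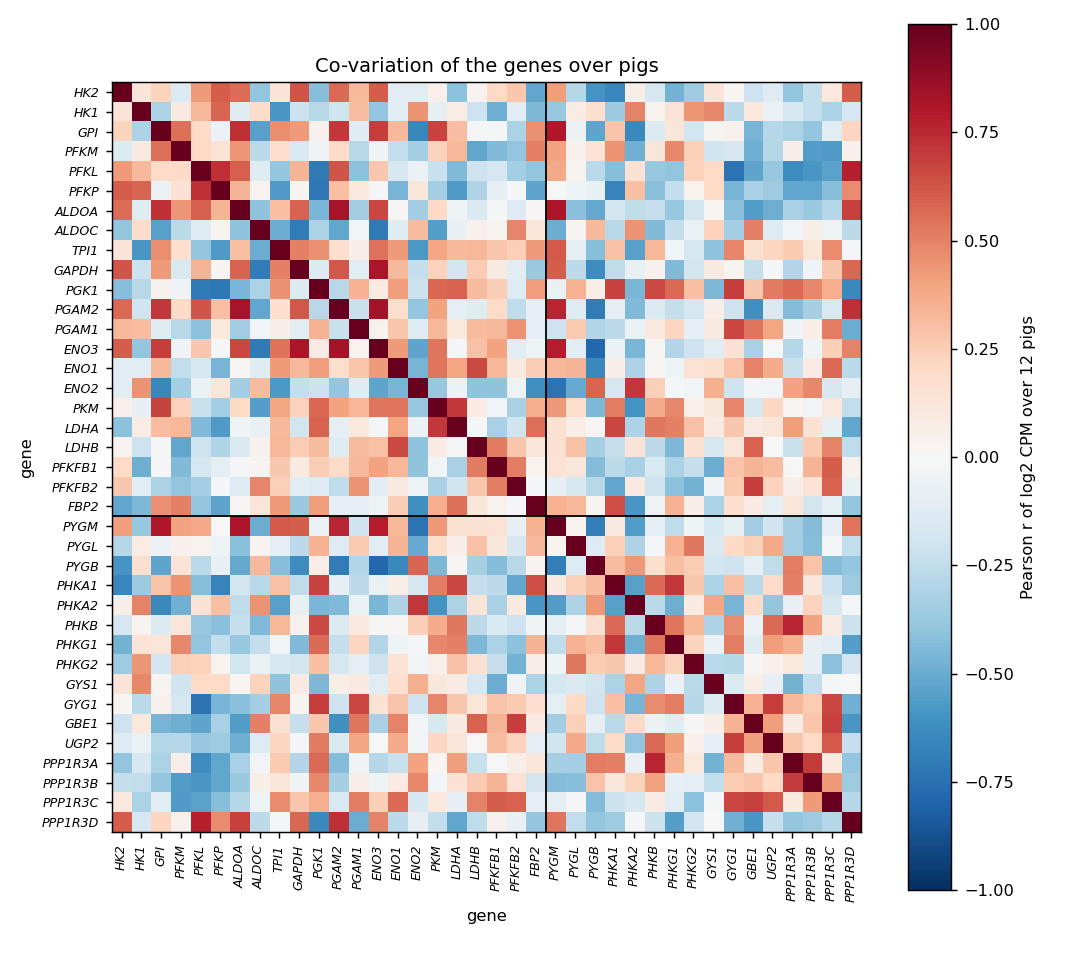
Colours give Pearson's r of log2 CPM over 12 pigs for each pair of the 38 genes, red for positive and blue for negative, with genes of glycolysis and its control above the black line and glycogen genes below it. Cells for pairs among ALDOA, GAPDH, PGAM2, ENO3, GPI and PYGM are red, although other genes lie between them in the order drawn. Red and blue cells are also found for other pairs, such as blue for PFKL with GYG1.

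A set of 10 pairs was named for test, of which 8 could be computed, and p-values come from 100000 random permutations of the pigs with Benjamini-Hochberg adjustment over the 8. PGAM2 and ENO3, which act one after the other, had Pearson's r = 0.83 (permutation p = 0.00399, adjusted p = 0.0319) and Spearman's rho = 0.59 (permutation p = 0.0455, adjusted p = 0.364). Within groups r was 0.81 in high and 0.88 in low IMF (n = 6 each). Without pigs 6 and 7, the farthest from the median of PGAM2, r was 0.45, over a narrower range of PGAM2. Without pig 7 alone it was 0.54 (permutation test, adjusted p = 0.657). Without pig 2, 5 or 6 alone r was 0.82 to 0.83 and the adjusted permutation p 0.0581 to 0.0701, so the call rests on each of these 4 pigs.

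ALDOA and GAPDH had r = 0.59 (permutation p = 0.044, adjusted p = 0.176) and rho = 0.47 (permutation p = 0.129, adjusted p = 0.514), and r = 0.18 without pigs 2 and 7. Within groups r was 0.53 in high and 0.84 in low IMF (n = 6 each). Over the 12 pigs the relation did not pass the test. On deviations from the group means r was 0.71 (permutation test, adjusted p = 0.038). There the deviations were permuted over all 12 pigs without regard to group, so that p may be too small. The other 6 pairs had r between -0.25 (PYGM and PHKG1) and 0.15 (PYGM and LDHA), with rho between -0.36 and 0.25, and the lowest adjusted permutation p among them was 0.96 for r and 0.679 for rho. PYGM thus showed no detectable relation with the alpha or gamma subunit of the kinase that activates it, at 12 pigs.

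HK2 and PPP1R3C stood out within groups. Over all 12 pigs r was 0.11, while low IMF pigs alone gave 0.98 and high IMF pigs alone -0.26 (n = 6 each). In low IMF, HK2 ran from 51.6 CPM in pig 12 over 81.4, 98.1, 104 and 135 CPM in pigs 9, 10, 8 and 11 to 156 CPM in pig 7. PPP1R3C in the same pigs was 251, 365, 517, 501, 595 and 647 CPM. Both genes thus ordered the low IMF pigs alike but for pigs 8 and 10. In high IMF, pig 6 had the most PPP1R3C (1039.8 CPM) with 92 CPM of HK2, and pig 1 the most HK2 with 310.2 CPM of PPP1R3C. The difference between the groups was seen after the values and was not tested.

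No gene of 3 neighbouring pathway lists was called by edgeR, and the shares at an unadjusted p at or under 0.05 stand beside 10.4% of all genes. Of 17 other glycogen genes tested, 2 were higher in low and 1 in high IMF at that p (17.6%): GSK3A, a kinase that inhibits glycogen synthase (log2FC 0.28 ± 0.089 (SE), adjusted p = 0.42 by edgeR), PGM2L1 (log2FC 0.25 ± 0.11 (SE), adjusted p = 0.449 by edgeR) and PGM2 (log2FC -0.68 ± 0.29 (SE), adjusted p = 0.448 by edgeR). Of 17 genes of pyruvate and lactate use, 2 did (11.8%), both higher in low IMF. They were GPT2, an alanine transaminase at only 0.328 CPM in low IMF (log2FC 1.37 ± 0.34 (SE), adjusted p = 0.316 by edgeR), and PDK3 (log2FC 0.34 ± 0.14 (SE), adjusted p = 0.441 by edgeR). PDK4, a kinase that shuts pyruvate out of the mitochondrial oxidation, was the most abundant of these with 1344 ± 745 CPM in high and 1890.3 ± 732 CPM in low IMF (SD, n = 6 each), log2FC 0.49 ± 0.39 (SE) and adjusted p = 0.685 by edgeR. Of 12 further glycolysis genes, 0 did, and BPGM, the bisphosphoglycerate mutase, was the most abundant with 142 ± 28.9 CPM in high and 149.7 ± 34.2 CPM in low IMF (SD, n = 6 each).

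Markers of fibre type and of other cells were set beside these values. The most abundant of each list were TNNT3 for fast fibres with 8400.3 ± 968 CPM in high and 9404 ± 1007 CPM in low IMF (SD, n = 6 each), MYL2 for slow fibres with 1261 ± 487 CPM in high and 1073 ± 485 CPM in low IMF (SD, n = 6 each) and ACTA1 for skeletal muscle with 17671 ± 3695 CPM in high and 21662 ± 6247 CPM in low IMF (SD, n = 6 each). For other cells they were PLIN4 for adipocytes with 254 ± 26.9 CPM in high and 283 ± 99.3 CPM in low IMF (SD, n = 6 each), COL3A1 for stroma with 1228 ± 296 CPM in high and 1516 ± 343 CPM in low IMF (SD, n = 6 each) and PECAM1 for endothelium with 57.2 ± 8.28 CPM in high and 64.1 ± 10.5 CPM in low IMF (SD, n = 6 each). CD163 for macrophages had 28 ± 6.61 CPM in high and 33.2 ± 7.94 CPM in low IMF (SD, n = 6 each), and HBB for red blood cells 156 ± 228 CPM in high and 87.6 ± 30.9 CPM in low IMF (SD, n = 6 each). CD163 and COL3A1 did not stand for their whole lists, since 2 of 6 macrophage genes (median log2FC -0.21) and 2 of 5 stromal genes (median -0.069) had a log2FC above 0. The same count was 6 of 8 for adipocytes (median 0.15), 3 of 4 for endothelium (median 0.13) and 0 of 3 for red blood cells (median -0.64). The 6 fast fibre genes found all had a log2FC above 0, and ATP2A1, the calcium pump of fast fibres, had log2FC 0.46 ± 0.13 (SE) (adjusted p = 0.367 by edgeR). Their summed level ran from 19726 to 27025 CPM in high and from 24429.6 to 33182 CPM in low IMF, highest in pig 7. The 6 slow fibre genes found summed to 1941 to 5054 CPM in high and 1393 to 5975 CPM in low IMF, again highest in pig 7, and 1 of 6 had a log2FC above 0. With the slow fibre level as a covariate, 1 of the 38 genes had an unadjusted p at or under 0.05, GPI. The 8 adipocyte genes summed to 410.3 to 576 CPM in high and 247 to 751 CPM in low IMF, 0 of 8 at an unadjusted p at or under 0.05. PLIN4 and then LPL, with 133 ± 26.0 CPM in high and 161 ± 48.8 CPM in low IMF (SD, n = 6 each), were the largest parts of this sum. Which cells of whole muscle these transcripts came from cannot be told here, so the sum is not a measure of adipocytes. PLIN1 of the same list had 3.92 ± 1.47 CPM in high and 4.94 ± 3.85 CPM in low IMF (SD, n = 6 each). ADIPOQ and FABP4 had log2FC -0.15 and -0.041, against the direction of PLIN4. For endothelium CDH5 (log2FC 0.55 ± 0.16 (SE), adjusted p = 0.383 by edgeR) and for stroma PDGFRA (log2FC -0.42 ± 0.17 (SE), adjusted p = 0.441 by edgeR) passed an unadjusted p of 0.05. The 3 red blood cell genes reached 631 CPM in pig 6, against at most 122 in the others, and macrophage genes 147 CPM, also in pig 6. The part of these levels in the values above was not tested.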

How the data were processed

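Whole counts per Ensembl gene and pig were deposited by the authors, not normalized. Before that, read pairs went through Trimmomatic, HISAT2 on Sscrofa 11.1, StringTie and HTSeq. The annotation release, the strand option and what HTSeq did with multiply aligned reads are not given in the sources used here. Pigs were grouped by the labels and are numbered as there. Depth was 131048805 to 178013997 counts per pig, which leaves counting error minor except in genes with few counts.

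Genes were matched by symbol (14857 of 25880 named). Genes kept by filterByExpr (14262) were normalized by TMM and tested with edgeR's quasi-likelihood test (edgeR 4.0.16, R 4.3.3, Benjamini-Hochberg over all 14262). Log2 CPM used a prior count of 2. Exact permutation tests, two-sided, used 924 arrangements. Lengths, coordinates and start regions are those of RefSeq on Sscrofa 11.1, and an identifier with 2 loci got no length. Alternatives used DESeq2 1.42.0, limma 3.58.1, other scalings and filters, covariates and pigs left out (scipy 1.17.1, pandas 2.3.3 and numpy 2.4.6 under Python 3.11.15). The fits were tested on simulated data.

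All 38 genes were accounted for. Values were given for the leading and second form of each enzyme, the 6 genes with the highest mean count, genes with an unadjusted p up to 0.05 and genes with a pig apart from its group, and from the fixed lists for genes at that p, the most abundant of each list, and PDK4. For 1 list the most abundant gene is not reported here. The genes and lists were chosen with earlier results of these data known. No column of the count table was left unmapped.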

Additional observations from a re-analysis of the deposited data

Results flagged for a closer look

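In 6 of 76 groups of 6 pigs, 1 pig lay so far from the others in log2 CPM that the gap, as a part of the group's range, exceeded Dixon's 95% critical value, and chance flags about 1 in 20 groups. In low IMF, pig 7 was the one apart in 3 genes. Its ENO1 was 79.8 CPM against 52.3 CPM in the next pig (gap 0.709 of the range), its PGAM2 1355 against 821 CPM (gap 0.649) and its PYGM 11025 against 7462 CPM (gap 0.628). These gaps are on TMM-normalized values, where library 7 had the lowest effective size for its total (0.81). By share of all counts its PYGM was 0.893% against 0.748% in pig 11, the next of low IMF. The gaps were not computed on that scale. PHKB was highest in low IMF pig 10, at 1031 against 834 CPM (gap 0.656). In high IMF, pig 6 was highest in PGAM1, at 24.5 against 18.7 CPM (gap 0.668), and pig 3 lowest in PHKA2, at 0.559 against 1.24 CPM (gap 0.661, 81 counts).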

How the results depend on the processing

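No gene of the 38 was called under any of 23 alternatives. The number at an unadjusted p at or under 0.05, 2 as reported, was 5 with labelled age as a covariate, 1 with the slow fibre level as a covariate and 1 to 4 with each pig left out. With age the 5 were PYGM, GPI and ALDOA, higher in low IMF, and PPP1R3B and PHKA2, higher in high IMF. PFKM was not among them. With the slow fibre level the 1 gene was GPI, so that PFKM and PPP1R3B both dropped out. PFKM and PPP1R3B kept their sign in all 23, at 0.21 to 0.31 and -0.77 to -0.45. With only the pigs whose Y chromosome counts matched the label, GAPDH (-0.45), ALDOA (-0.015), ENO3 (-0.11), HK2 (-0.088) and PGAM2 (-0.14) reversed, and GAPDH also by library size only (-0.026) and limma-voom (-0.021). Leaving out each pig gave GAPDH -0.13 to 0.13 and ENO3 -0.038 to 0.12. The cause was not tested. By library size only, the exact permutation p was 0.0801 for PFKM and 0.0563 for PPP1R3B, and r was -0.048 for PYGM with PHKA1, -0.024 for HK2 with PPP1R3C and -0.13 for PYGM with LDHA. On deviations from group means r was 0.00294 for LDHA with LDHB and 0.71 for ALDOA with GAPDH (permutation test without regard to group, adjusted p = 0.038). With each pig left out, r ranged over 0.54 to 0.86 for PGAM2 with ENO3, 0.34 to 0.70 for ALDOA with GAPDH, -0.20 to 0.12 for LDHA with LDHB, -0.22 to 0.32 for PYGM with PHKA1, -0.28 to 0.25 for GYS1 with GBE1, -0.10 to 0.26 for HK2 with PPP1R3C and -0.013 to 0.33 for PYGM with LDHA. PGAM2 with ENO3 lost its call without pigs 2, 5, 6 or 7. By raw counts ENO3 held 99.3% and PPP1R3A 70.4% of their enzyme, and with union exon length, added after the data were seen, ALDOA 99.91%, PGAM2 95.9% and PFKFB1 98.2%. With further forms counted, also added then, PFKFB1 held 66.6%. The 38 genes held 8.67% of counts without the mitochondrial genes and the most abundant gene. The median r of the chain scaled by library size only, also added then, was 0.14. Depth limits PYGB, ENO2 and PPP1R3D, each with under 100 counts per pig on average.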
